A study of Mus musculus with 4 samples.

Results

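The mucins of airway and oviduct were followed through a mouse microarray series as 8 genes out of 30556 measured genes, taken by name from the probe set annotation: the gel-forming Muc5b and Muc5ac, and the membrane-bound Muc1, Muc4, Muc16, Muc20, Muc15 and Muc13. Each was read by 1 probe set. Total RNA of dissected and frozen tissue was hybridised to 1-colour Affymetrix arrays, 1 array per group. The 4 groups were trachea of a GEMC1 null male mouse of 39 days, trachea of a WT male of 39 days, oviduct of a GEMC1 null female of 65 days and oviduct of a WT female of 65 days, all on a mixed C57BL/6 x 129 background and untreated. GEMC1 (current symbol Gmnc) is a geminin relative known to start the multiciliated cell programme, and the series asks, per its title, about that programme. The sources used here do not give the deleted part of the gene, nor whether an array holds RNA of 1 mouse or of several. Tissue, sex and age change together, so they cannot be told apart. With 1 array per group no value has an error from replicates, and precision is limited by having so few arrays.

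Mucins are large glycoproteins whose serine- and threonine-rich stretches carry dense O-linked sugar chains. Gel-forming mucins are secreted, link into polymers through cysteine-rich ends and make up mucus; in mouse airway Muc5b is the mucin of everyday mucociliary clearance, while Muc5ac is scarce at rest and induced in allergic inflammation. Membrane-bound mucins span the apical membrane, form the glycocalyx and, in airway, fill the space around the cilia, on which the mucus layer slides.

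The upstream sequences of 3 membrane-bound mucins are shown because these genes were lower together on one trachea array, as described further on. Muc16, lower on that array too, is not printed, since 218 of the 250 bases before its start in the table lie inside its own gene span. A RefSeq promoter table of build GRCm38.p6 matched 5 of the 8 genes by symbol. For Muc1, Muc4 and Muc20 the 250 bases before the transcript start, on the strand of the gene and 5′ to 3′, are printed with every match to a searched motif in capitals. They lie at chr3:89228806-89229055 (plus strand) for Muc1, chr16:32735636-32735885 (plus strand) for Muc4 and chr16:32797436-32797685 (minus strand) for Muc20.
Muc1: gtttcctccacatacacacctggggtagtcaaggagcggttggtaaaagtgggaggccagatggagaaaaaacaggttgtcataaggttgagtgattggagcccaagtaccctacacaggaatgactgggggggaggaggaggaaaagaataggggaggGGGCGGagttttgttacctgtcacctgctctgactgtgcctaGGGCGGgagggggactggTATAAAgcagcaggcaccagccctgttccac
Muc4: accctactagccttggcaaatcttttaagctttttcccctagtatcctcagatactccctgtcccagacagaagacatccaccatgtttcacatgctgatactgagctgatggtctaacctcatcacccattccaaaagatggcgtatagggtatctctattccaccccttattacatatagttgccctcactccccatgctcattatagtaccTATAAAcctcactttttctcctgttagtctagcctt
Muc20: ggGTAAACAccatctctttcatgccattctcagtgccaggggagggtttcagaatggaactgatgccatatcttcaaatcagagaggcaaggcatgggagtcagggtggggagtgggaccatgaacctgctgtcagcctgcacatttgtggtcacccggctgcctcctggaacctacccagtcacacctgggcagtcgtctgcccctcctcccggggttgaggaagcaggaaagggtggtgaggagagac
The 7 motifs were searched on both strands, and no 2 matches overlapped. The TATA box letters TATAAA, found in 12.4% of 32851 promoter windows of this length, lay from base -31 to base -26 in Muc1 and from base -36 to base -31 in Muc4, base -1 being the last before the start. The GC box GGGCGG, in 32.7% of windows, occurred at 2 places in Muc1, from base -91 and from base -49. The forkhead letters TGTTTNC, in 17.8% of windows, were matched on the opposite strand at the far end of the Muc20 window. The letters TTCNNNGAA (STAT, 7.02% of windows), TGANTCA (AP-1, 6.75%), AACAATG (SOX, 3.29%) and CAGGAAG (ETS, 10.8%) were not in these 3 windows. A match is a run of letters and was not tested as a binding site. In the RefSeq table Muc5ac and Muc5b are direct neighbours on chromosome 7, and the loci of Muc4 and Muc20 on chromosome 16 overlap and run on opposite strands; where the probes lie in the overlap was not analysed here.

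All levels are log2 RMA signals, a quantile-normalized brightness on which 1 unit is 2-fold, and array medians over all probe sets were 5.91 to 6.00. The 5222 negative-control probe sets had medians of 5.74 and 5.98 on the GEMC1 null and WT trachea arrays and of 5.79 and 5.77 on the GEMC1 null and WT oviduct arrays, and below background means below that median. The targeted gene, Gmnc, had a level of 4.63 on the trachea array with the GEMC1 null label and 5.90 on the WT trachea array, both below background. In oviduct it had 8.86 on the array labelled GEMC1 null and 6.11 on the WT array, which goes against that label. A probe set outside the deleted part would check nothing, so arrays are called by their labels and every direction rests on them. Multiciliated markers, described further on, were at least 2-fold lower in 10 of 10 on the array labelled GEMC1 null in each tissue. Of all genes, 7.70% were so in trachea and 2.74% in oviduct. In each tissue 8 of the 10 markers reached the array median only on the WT array, which fixed their direction in advance. Whether the labels are right was not tested. Over probe sets the trachea arrays correlated at r = 0.945 and the oviduct arrays at r = 0.979. The trachea array labelled GEMC1 null stood apart in its markers: skeletal muscle markers summed to a linear signal of 40185 there and 1134 on the WT trachea array, squamous epithelium markers to 30451 and 704, and airway secretory markers to 4104 and 47939.6. Oviduct secretory markers summed to 11945 on the GEMC1 null and 10331 on the WT oviduct array, and 0 of 6 were below background on either.

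Muc5b, the main gel-forming mucin of mouse airway, had a level of 6.69 on the trachea array with the GEMC1 null label and 11.65 on the WT trachea array, and of 6.58 and 6.37 on the GEMC1 null and WT oviduct arrays. One array, WT trachea, was high, and the other 3 lay within 0.31 of each other. Against the negative controls, 99.2% of them were dimmer than Muc5b on the WT trachea array, and 70.5%, 66.5% and 63.7% were dimmer on the arrays of GEMC1 null trachea, GEMC1 null oviduct and WT oviduct.

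Muc5ac, the inducible gel-forming mucin, had a level of 5.89 on the trachea array with the GEMC1 null label and 7.22 on the WT trachea array, and of 5.94 and 5.76 on the GEMC1 null and WT oviduct arrays. WT trachea was again the high array, by less than for Muc5b, at 1.28 above the next array, with the other 3 within 0.18 of each other and close to background. The WT oviduct value was below background.

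**Figure D1:**
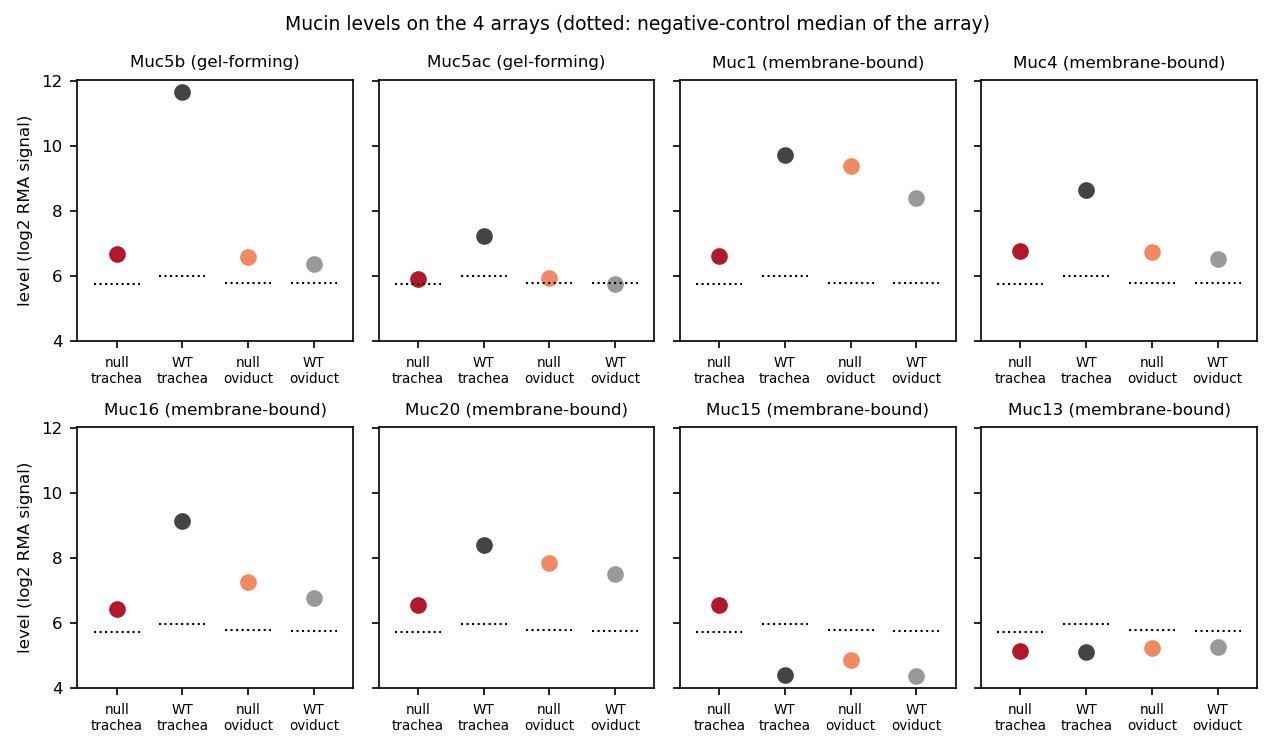
Level of each of the 8 mucins on the 4 arrays, in log2 RMA signal, with 1 point per array and the array's negative-control median as a dotted line; null stands for GEMC1 null. The WT trachea point stands alone at the top for Muc5b (11.65), Muc5ac (7.22), Muc4 (8.63) and Muc16 (9.14), the GEMC1 null trachea point is lowest for Muc1 (6.62) and Muc20 (6.57) and highest for Muc15 (6.56), and all Muc13 points lie below background.

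Among the membrane-bound mucins, Muc4, a ligand of the receptor ErbB2 in rat and human cells, had a level of 6.76 on the trachea array with the GEMC1 null label and 8.63 on the WT trachea array, and of 6.75 and 6.52 on the GEMC1 null and WT oviduct arrays. Muc16, which carries the CA125 epitope in human and binds mesothelin, had 6.43 and 9.14 on the GEMC1 null and WT trachea arrays, and 7.28 and 6.77 on the GEMC1 null and WT oviduct arrays. These 2 genes therefore had the arrangement of the gel-forming mucins, with WT trachea above the next array by 1.87 for Muc4 and 1.86 for Muc16. Such a pattern, with the WT trachea array highest of the 4 by at least 2-fold, was met in 3.59% of 20872 genes.

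Muc1 and Muc20 were arranged differently, with WT trachea less than 2-fold above the next array (0.36 for Muc1 and 0.56 for Muc20). Muc1, a mucin of most simple epithelia whose tail takes part in signalling, had a level of 6.62 on the trachea array with the GEMC1 null label and 9.72 on the WT trachea array, and of 9.36 and 8.39 on the GEMC1 null and WT oviduct arrays. Muc20, known in human cells to bind the receptor Met, had 6.57 and 8.39 on the GEMC1 null and WT trachea arrays, and 7.83 and 7.50 on the GEMC1 null and WT oviduct arrays. In both genes the GEMC1 null trachea array was the low one, 1.76 below the next array for Muc1 and 0.93 for Muc20. That array was lowest by at least 2-fold, as for Muc1 but not Muc20, in 1.09% of the 20872 genes. It was also the lowest for Muc16, by 0.34.

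Muc15, a membrane mucin first described in bovine milk, ran the other way. Its level was 6.56 on the trachea array with the GEMC1 null label and 4.41 on the WT trachea array, and 4.87 and 4.36 on the GEMC1 null and WT oviduct arrays. Only the GEMC1 null trachea value exceeded background, so its distance from the other arrays is a bound that falls short of 2-fold; by values as given, 4.16% of the 20872 genes had that array highest by at least 2-fold. Muc13, a mucin best known from the intestine, had 5.15 and 5.12 on the GEMC1 null and WT trachea arrays and 5.24 and 5.28 on the GEMC1 null and WT oviduct arrays, all below background, so it gives no measured difference between any groups.

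The comparison of GEMC1 null with WT trachea asks which mucin transcripts differ where multiciliated cells are targeted in an airway. Muc5b, Muc5ac, Muc1, Muc4, Muc16 and Muc20 were at least 2-fold lower on the array labelled GEMC1 null, Muc15 was higher by a bound under 2-fold, and Muc13 was not measurable. A gene entered the comparison when either trachea array showed it at or above the array median; 7 of the 8 mucins did, among 20052 genes in all. Muc15 passed only through the GEMC1 null array and Muc5ac only through the WT array, in each case the array where it is high, so that both had to differ. Across those genes, 7.70% showed a drop of 2-fold or more and 6.34% a gain of that size. In bulk tissue, fewer cells of a type and less RNA per cell cannot be told apart.

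Both gel-forming mucins were lower in trachea, with a class median difference (GEMC1 null minus WT) of -3.14. Muc5b was 31.2-fold lower, a log2 difference of -4.97, and only 11 of the 20052 genes had a larger drop. Muc5ac was 2.50-fold lower (-1.32), with 1101 genes lower still. The genes of this class therefore differed by unequal amounts.

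Of the 6 membrane-bound mucins 5 passed the level filter in trachea, 4 of them at least 2-fold lower, and the class median difference was -1.87, against 0.03 over all genes. Muc1 was 8.56-fold lower (-3.10), Muc16 6.53-fold (-2.71), Muc4 3.65-fold (-1.87) and Muc20 3.53-fold (-1.82). All 4 lay beyond the 5th percentile of all genes at -1.42, which Muc5ac did not reach. Muc15 differed by 2.15, but its WT value was below background, and against the background median the level on the array labelled GEMC1 null was at least 1.49-fold higher, a bound short of 2-fold. The gel-forming median lay 1.28 below the membrane-bound median, a gap carried by Muc5b, since Muc5ac differed less than Muc1, Muc16, Muc4 and Muc20. With levels under the 95th percentile of the negative controls (8.70 on the GEMC1 null and 8.87 on the WT trachea array) raised to it, an alternative added later with the values known, 2 mucins (Muc5b and Muc1) passed 2-fold in place of 6.

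**Figure D2:**
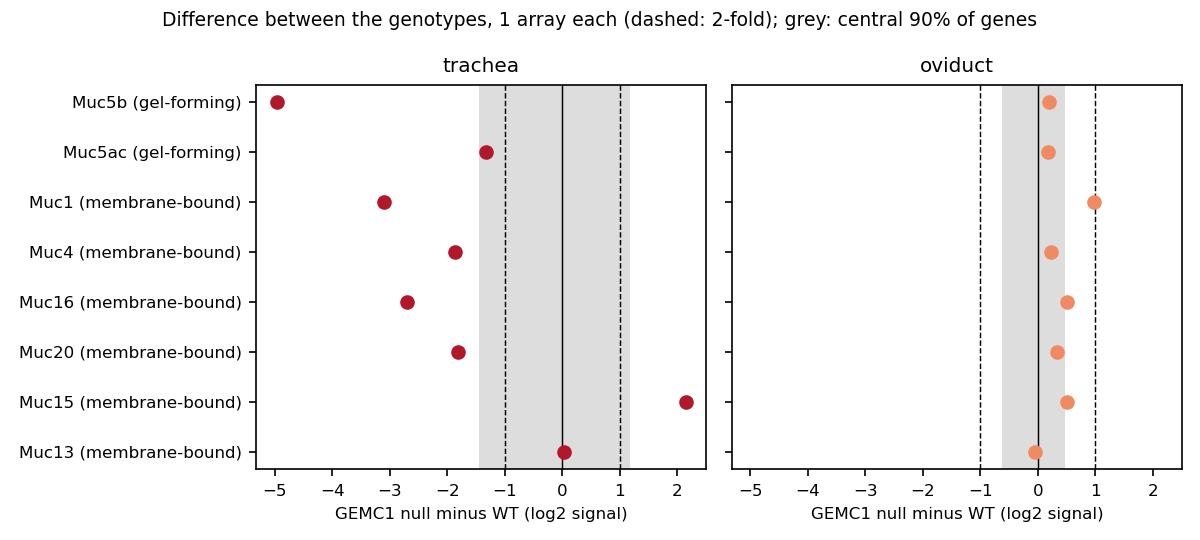
Difference GEMC1 null minus WT in log2 signal for each mucin, trachea left and oviduct right, 1 array per group; the grey band spans the central 90% of genes past the level filter and dashed lines mark 2-fold. In trachea Muc5b (-4.97), Muc1, Muc16, Muc4 and Muc20 lie left of the band; Muc15 is plotted by values as given (2.15), whereas its bound of 1.49-fold falls inside the band, and in oviduct all points lie within 2-fold and Muc1 (0.98) is farthest right.

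The same comparison in oviduct found no mucin at least 2-fold different. The 5 mucins that passed the level filter there, Muc5b, Muc1, Muc4, Muc16 and Muc20, were all somewhat higher on the array labelled GEMC1 null. That direction was the more common one, as 7791 of 19599 genes were below 0 in oviduct. Muc1 differed most, by 0.98 (1.97-fold), and 166 of 19599 genes had a larger difference upward. Muc16 differed by 0.50, Muc20 by 0.33, Muc4 by 0.23 and Muc5b by 0.20, beside an all-gene median of 0.05 and a 95th percentile of 0.46. Muc1 and Muc16 thus lay past that percentile, and Muc20, Muc4 and Muc5b did not. Across genes in oviduct, 2.74% showed a drop of 2-fold or more and 0.801% a gain of that size.

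The membrane-bound median difference in oviduct was 0.42 and that of Muc5b, the one gel-forming mucin past the filter, 0.20. Muc5ac, Muc15 and Muc13 did not reach the filter in oviduct; Muc15 (0.50) and Muc13 (-0.05) were below background on both oviduct arrays and Muc5ac (0.18) on one. Muc5b, Muc1, Muc4, Muc16 and Muc20 were lower at least 2-fold in trachea and above 0 in oviduct, as were 3.38% of the 18779 genes that passed in both tissues. Whether the tissues differ in this was not tested, since no array is repeated.

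A limma model of the 4 arrays, with terms for tissue and genotype and 1 residual degree of freedom, asked for a genotype difference shared by both tissues. Muc5b had a shared log2 difference of -2.38 (SE 1.56, limma adjusted p = 0.829), lower in 1 of 2 tissues. Fits without a block and without 1 array, added with the values known, moved it to 0.26 without WT trachea and to -5.02 without WT oviduct. Muc15 had 1.33 (SE 0.518, limma adjusted p = 0.829), with only 1 of its 4 values above background, and 0.30 with levels below background set to the background median. For Muc5ac, Muc1, Muc4, Muc16 and Muc20 the shared differences lay between -1.10 and -0.57, with SEs of 0.474 to 1.23 and limma adjusted p-values of 0.829 to 0.852. Muc1 was at 0.31 without the GEMC1 null trachea array, against -1.06 with all 4, and without the WT trachea array Muc5ac was at 0.15, Muc4 at 0.23 and Muc16 at 0.08. No mucin was called, and neither was any other of the 20872 genes: 0% passed Benjamini-Hochberg at 0.05 in limma, while an unadjusted p under 0.05 was reached by 2.69% of genes downward and 0.800% upward, counts of 561 and 167.

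The comparison of tissues asks where each mucin is found. Between the WT arrays, Muc5b, Muc5ac, Muc1, Muc4 and Muc16 were at least 2-fold higher in trachea than in oviduct, and none of the 7 mucins that passed the filter in either tissue was at least 2-fold lower. Muc5b was 38.9-fold higher in WT trachea, a log2 difference of 5.28. Muc16 was 5.16-fold higher, Muc4 4.29-fold and Muc1 2.53-fold, and Muc5ac at least 2.72-fold. Muc20 differed by 0.89, a 1.85-fold higher level in WT trachea. Across all 20872 genes 6.21% passed 2-fold upward in WT trachea and 4.55% downward.

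Between the arrays labelled GEMC1 null that order was not found. Muc5b (0.11), Muc5ac (-0.04) and Muc4 (0.01) were close to level between trachea and oviduct. Muc1 was 6.67-fold lower in trachea (-2.74) and Muc20 2.40-fold lower (-1.26), and Muc16 differed by -0.84. Muc15 was at least 1.70-fold higher in GEMC1 null trachea. Across all genes 5.95% passed 2-fold downward in GEMC1 null trachea and 6.53% upward, and of the 7 mucins 2 did downward and none upward with Muc15 at its bound.

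**Figure D3:**
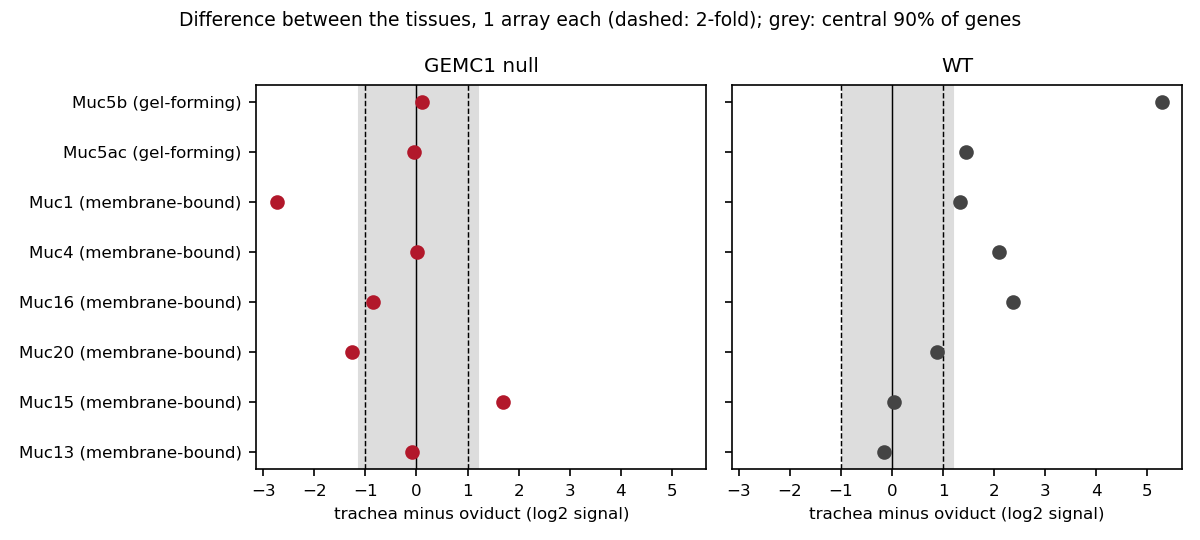
Difference trachea minus oviduct in log2 signal for each mucin, between the GEMC1 null arrays (left) and between the WT arrays (right), with the central 90% of genes as a grey band and 2-fold as dashed lines. Muc5b lies at 0.11 between the GEMC1 null arrays and at 5.28 between the WT arrays, and Muc1 at -2.74 and 1.34.

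In the limma fit the tissue difference shared by both genotypes was 2.70 for Muc5b (SE 1.56, limma adjusted p = 0.577) and between -0.70 and 1.06 for the other 6 mucins fitted, with limma adjusted p-values of 0.584 to 0.915. Over all genes 0% passed adjustment in either direction, and 7.42% reached an unadjusted p under 0.05 with lower levels in trachea and 3.82% with higher ones (1549 and 798 genes). A fit without the GEMC1 null trachea array and without a block, added with the values known, set WT trachea against both oviduct arrays, taking the lone trachea array to vary as the oviduct arrays do. A like fit without the WT trachea array set GEMC1 null trachea against both oviduct arrays. It gave 0.21 for Muc5b, 0.12 for Muc4, 0.05 for Muc5ac and -0.59 for Muc16. Each such fit has 1 trachea array, so effect sizes alone are given for the mucins. In the fit without the GEMC1 null trachea array Muc5b was higher by 5.18, Muc4 by 1.99, Muc5ac by 1.37 and Muc16 by 2.12. In that fit 3.62% of genes were called higher and 1.61% lower in WT trachea, and the oviduct arrays that set its error differ in genotype.

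Genes whose 4 levels ran most like each mucin were found by the root mean square difference of values centred on the gene's own mean, over 4 arrays and 20872 genes. Only 4 values per gene enter this likeness, and of the 16 nearest genes 8 were below background on at least 1 array, where the likeness is not one of measured levels. Nearest to Muc5b were Scgb3a2, a secretoglobin of airway club cells (0.03, above background on 1 of 4 arrays), and Glycam1, a secreted mucin-like glycoprotein (0.08, on 2 of 4). Nearest to Muc5ac were the T-cell receptor segment Trav14-1 (0.03, above background on 0 of 4 arrays) and Ern2 (0.03, on 4 of 4), an endoplasmic reticulum stress sensor of mucus-producing cells. Muc4 was nearest to A630023P12Rik (0.01, on 1 of 4) and Gm5431 (0.02, on 4 of 4). Muc16 was nearest to the immunoglobulin segment Ighv11-2 (0.07, on 1 of 4) and the lymphocyte receptor Slamf7 (0.08, on 3 of 4). Muc1 was nearest to an immunoglobulin kappa variable segment (0.12, on 2 of 4) and the haptoglobin gene Hp (0.20, on 4 of 4). Muc20 was nearest to the chemokine gene Cxcl16 (0.08) and Thrsp (0.09), each on 4 of 4. Muc15 was nearest to the late cornified envelope gene Lce3d (0.06, on 1 of 4) and Plekhn1 (0.09, on 4 of 4). Muc13, below background throughout, was nearest to Tbccd1 and Znhit1 (0.01 each, on 4 of 4).

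The wider mucin pathway was described by counts over lists of genes, to be read against the all-gene shares in trachea of 7.70% lower and 6.34% higher. In trachea the counts of 1 or 2 genes lie near those shares and are no result about a list. In oviduct the all-gene shares were 2.74% lower and 0.801% higher. Counts of 1 or 2 genes there lie above those shares but are too few to be a result about a list. Of 12 measured genes in a list of other mucins and mucin-like proteins, which holds the gel-forming Muc2 and Muc6, 11 passed the filter in trachea and 1, the androgen-regulated mucin-like gene Parm1, was at least 2-fold lower there (-1.15), with a list median of 0.05. In oviduct 12 passed, 0 differed by 2-fold and the median was 0.07. Of 16 polypeptide GalNAc transferases, the enzymes that place the first O-linked sugar, 2 were at least 2-fold lower in trachea, Galnt6 (-1.59) and Galnt12 (-1.28), and 1 was higher, Galnt17 (1.46), with a median of -0.13. In oviduct 0 of 15 differed by 2-fold, and the farthest from 0 were Galnt18 (-0.74), Galnt4 (0.50) and Galnt10 (-0.42).

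Among enzymes that extend and cap O-glycans, 1 of 10 was at least 2-fold lower in trachea, near the all-gene share of 7.70%: the sialyltransferase gene St3gal1 (-1.18), next to St6galnac2 (0.95) and St3gal4 (-0.94), and the median was -0.32. In oviduct 0 of 11 reached 2-fold; Gcnt3, which branches mucin glycans, differed by 0.90, the fucosyltransferase gene Fut2 by 0.84 and St6galnac2 by -0.26. In the list of mucin folding, packaging and exocytosis 3 of 14 were at least 2-fold lower in trachea and 1 higher. Agr2, the disulphide isomerase needed for mucin folding in mouse intestine, had a level of 5.70 on the GEMC1 null and 9.46 on the WT trachea array, at least 13.2-fold lower; Ern2 differed by -1.41, and the nucleotide receptor gene P2ry2 by 1.20. In oviduct Agr2 had 10.88 on the GEMC1 null and 9.45 on the WT array, 2.69-fold higher and 1 of 14 past 2-fold, with Rab27a at -0.84 and Xbp1 at 0.67. Agr2 thus differed in the same directions as Muc1, lower in trachea and higher in oviduct on the arrays labelled GEMC1 null.

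Of 12 genes of a goblet cell list in trachea, 3 were at least 2-fold lower and 1 higher (median -0.36), beside 7.70% and 6.34% of all genes. Clca1, a secreted goblet cell protein, was at least 8.45-fold lower and the trefoil factor gene Tff2 9.30-fold lower, whereas Clca2 was at least 2.98-fold higher. Clca2 was above background only on the GEMC1 null trachea array, as were the basal marker Dsg3 and the squamous markers Tgm3 and Krtdap. Among the 10 that passed in oviduct, Zg16 (-1.26) and Bcas1 (-1.03) were lower by 2-fold or more (2 of 10, beside 2.74% of all genes). Foxa2, a forkhead factor of gland and airway epithelium, was at 0.78. Partners and sheddases of membrane mucins held 1 of 10 lower and 1 of 10 higher in trachea, near the all-gene shares there. The Muc16 partner Msln, which encodes mesothelin, was 4.43-fold lower (-2.15), and the receptor gene Egfr was 2.48-fold higher (1.31), with Erbb3 at 0.67. In oviduct 0 of 10 reached 2-fold, with Met at 0.53, Egfr at -0.45 and Msln at -0.44.

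**Figure D4:**
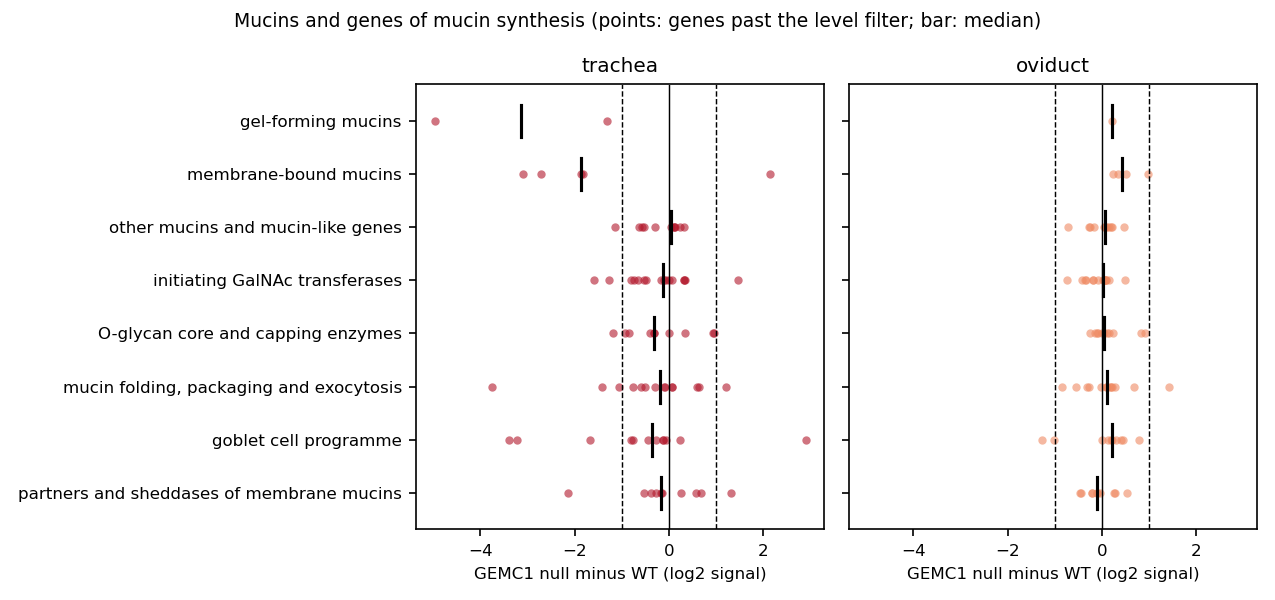
Difference GEMC1 null minus WT in log2 signal for each gene past the level filter in 8 lists, trachea left and oviduct right; points are genes, black bars list medians and dashed lines 2-fold. The medians of the mucin classes in trachea (-3.14 and -1.87) lie left of those of the other lists, which lie between -0.36 and 0.05.

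Markers of other cells moved with the mucins in trachea. List medians here, added with the values known, take levels below background at the background median, so that each is no farther from 0 than the bounds allow; counts are of all measured markers, beside 7.70% of genes lower and 6.34% higher. Airway secretory markers were at least 2-fold lower in 10 of 10 (median -4.82), with Bpifa1 at -6.97 and Scgb3a1 at -5.79, and 3 of 10 were below background on the array labelled GEMC1 null. Multiciliated cell markers were lower in 10 of 10 (median -3.21), with Sntn and Dnah6 among the 8 of 10 below background there. Sec14l3, counted above as airway secretory, was like the multiciliated markers lower in both tissues (-5.45 in trachea and -3.46 in oviduct). Among general epithelial markers 7 of 9 were lower (median -1.07), including Krt8 (-3.04) and Krt18 (-2.69). Lymphocyte markers were lower in 7 of 7 (median -3.32), with Cd79b 20.5-fold lower and Ms4a1 below background on the array labelled GEMC1 null. Higher on the same array were skeletal muscle markers in 8 of 8 (median 4.70) and basal cell markers in 5 of 8 (median 1.96), among them Dsg3 and Krt14. Squamous epithelial markers were higher in 7 of 8, among them Tgm3 and Krtdap. Of these, 4 passed the level filter only through the array where they were high, as did 4 of the skeletal muscle markers and 1 basal cell marker. Among the lower markers, 8 multiciliated, 4 lymphocyte and 3 airway secretory ones passed only through the WT trachea array. For genes that passed through 1 array only, the filter set the direction. Smooth muscle markers were lower in 3 of 6 and higher in 1 (median -1.07), with Cnn1 at -2.10 and Myh11 at -1.53, and mesothelial markers lower in 3 of 6 and higher in 2 (median -0.39), with Msln at -2.15 and Krt19 at -1.84. The part of these differences in the lower levels of Muc5b, Muc5ac, Muc1, Muc4, Muc16 and Muc20 and in the higher level of Muc15 was not tested.

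Over all genes in oviduct, 2.74% were at least 2-fold lower and 0.801% higher, so a count of 0 in a short list is near those shares. In oviduct general epithelial markers had 0 of 9 past 2-fold (median 0.08), with Krt7 at 0.61 and Epcam at 0.60. Oviduct secretory markers had 0 of 6 (median 0.23), with Esr1 at 0.78 and Pax8 at 0.68. Mesothelial markers, listed because mesothelium carries Muc16, had 0 of 6 past 2-fold (median 0.10), with Msln at -0.44 and Lrrn4 at 0.42. Multiciliated markers were at least 2-fold lower in 10 of 10 in oviduct too (median -3.81), with Sntn at least 20.6-fold lower and 7 of 10 below background on the array labelled GEMC1 null. Ovary somatic markers were at least 2-fold lower in 6 of 7 (median -3.14), with Cyp11a1 at least 76.3-fold and Hsd3b1 at least 24.8-fold lower, and with a summed linear signal of 664 on the GEMC1 null and 12258 on the WT oviduct array. Their part in the oviduct differences was not tested. Of the 10 multiciliated and 7 ovary somatic markers, 8 and 3 passed the level filter only through the WT oviduct array, so the filter set their direction.

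**Figure D5:**
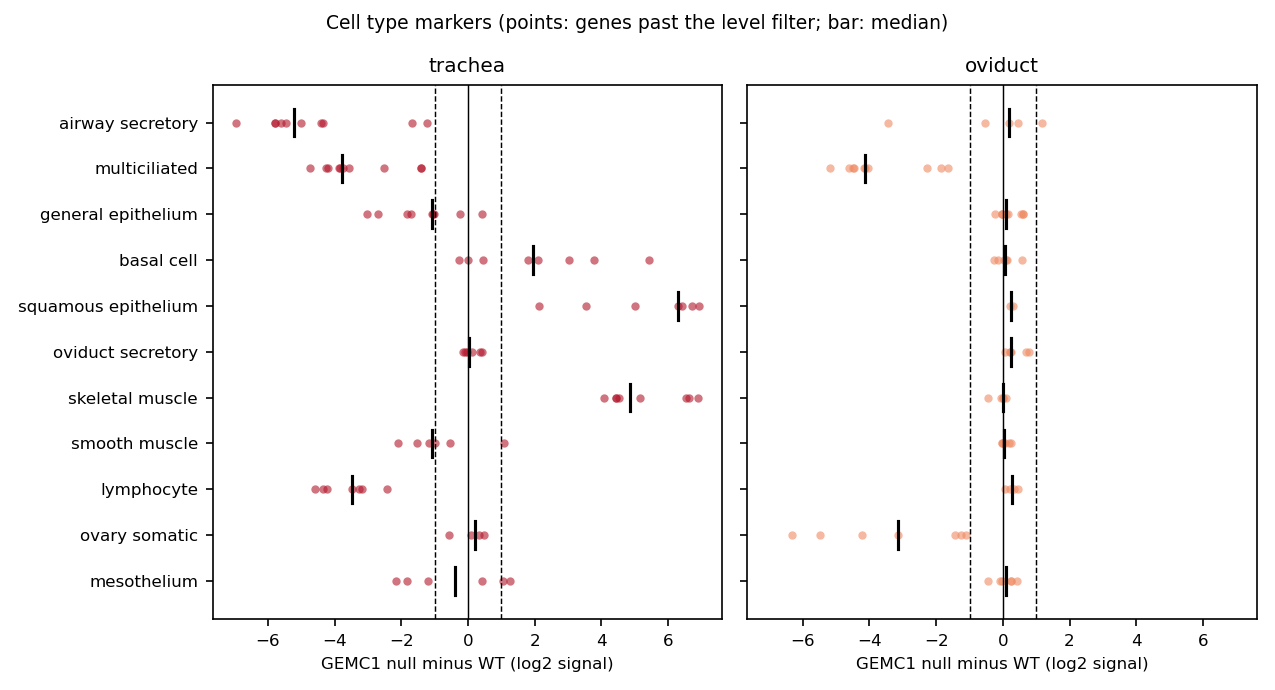
Difference GEMC1 null minus WT in log2 signal for each marker past the level filter, by cell type list, trachea left and oviduct right, with black bars for list medians and dashed lines at 2-fold; levels below background are plotted as given, so points far from 0 can be bounds. Multiciliated markers are low in both tissues (medians as plotted -3.79 and -4.15), while airway secretory (-5.23), squamous (6.30) and skeletal muscle (4.85) medians stand off 0 in trachea.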

How the data were processed

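Per the submitters' processing notes the authors used RMA (background correction, quantile normalization, probe summary); the sources used here give no version, settings or build. The deposited log2 values appear to have been logged again. Raising 2 to each value gave exactly 6 significant digits in 100% of cells (relative tolerance 1e-09), which held for 0.044% of values as deposited, and the result is used as log2 signal. The table held 72688 probe sets, 6732 of them controls; 31081 transcript clusters had 1 gene in the platform annotation (symbols updated through RefSeq, assembly GRCm38.p6), 1669 several or unresolved, 33206 were not listed, and the brightest of a gene's probe sets was used, giving 30556 genes. Groups came from the sample titles. Genes at or above the array median (percentile 50) on 1 of a tissue's 2 arrays were compared by size alone. A fold whose dimmer array lay below the negative-control median is taken against that median and printed as "at least". The 4 arrays were joined in limma 3.58.1 (R 4.3.3) with tissue and genotype as terms and Benjamini-Hochberg adjustment. The fit was also run on simulated data with genotype differences equal in both tissues, which says nothing about genes with opposite signs in the tissues. Alternatives covered threshold, filter, floor, centring, scale, block and prior. The mucins, gene lists, motifs and tests were chosen with earlier results of these data known. Named genes were all 8 mucins, other mucins past 2-fold, per pathway list and tissue the up to 3 and per marker list the up to 2 largest differences, and the 2 nearest patterns per mucin.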

Additional observations from a re-analysis of the deposited data

Results flagged for a closer look

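For 6 mucins the difference GEMC1 null minus WT was below 0 in trachea and above 0 in oviduct. Either sign is common: over all genes past the filter, 9465 of 20052 were below 0 in trachea and 7791 of 19599 in oviduct. With 1 array per group, the difference between the tissues was not tested. The trachea difference minus the oviduct difference was -5.17 for Muc5b, -4.07 for Muc1, -3.21 for Muc16, -2.15 for Muc20, -2.09 for Muc4 and -1.50 for Muc5ac on the log2 scale. Muc5ac did not reach the level filter in oviduct, and 1 of its oviduct values was below background.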

How the results depend on the processing

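The 6 lower mucins in trachea numbered 6 or 5 under other filters, array centring, probe set averaging, a floor at the negative-control median and 1.5-fold or 3-fold thresholds. They numbered 2 with a floor at the 95th percentile of the negative controls (185 genes lower and 270 higher in trachea, 34 and 22 in oviduct), and 0 with the deposited values read as log2 signal, which shrinks every difference (19 genes lower and 23 higher in trachea, 4 and 0 in oviduct). The 1 higher mucin, Muc15, became 0 with either floor, with a filter at percentile 75 and with the deposited scale; at the 95th percentile floor its difference was -0.17, the gap between the floors. The gel-forming minus membrane-bound median in trachea was -2.68 with the percentile 75 filter, which leaves out Muc15 and Muc5ac, and -0.19 on the deposited scale. Genes at least 1.5-fold lower and higher numbered 2668 and 2375 in trachea and 1024 and 551 in oviduct, with 1 mucin (Muc1) higher in oviduct; at 3-fold they were 861 and 614, and 265 and 35. Between the WT arrays 3 mucins were higher in trachea at 3-fold and 2 with the 95th percentile floor; between the GEMC1 null arrays 0 were higher with either floor, 1 was lower at 3-fold and 0 with the 95th percentile floor. Without a block the limma tissue effect called 2 genes lower in trachea. Other fits were made without a block and without 1 array in turn. In them the shared genotype values of Muc5b, Muc5ac, Muc4 and Muc16 turned above 0 without WT trachea. That of Muc1 did so without GEMC1 null trachea. Such fits leave 1 array in a group, so genes called in them are not read as results. For the tissue effect, the numbers of genes called lower and higher in trachea are listed only to show how far they move. Without the GEMC1 null trachea array these were 336 and 756, and without the WT trachea array 467 and 965. No paired analysis was possible because each group has 1 array and no replicate number. With 1 array per group no spread between animals is known, and most mucin levels outside WT trachea lie among those of the negative controls, which limits every fold printed. On the WT trachea array Muc15, Muc13, Muc5ac, Muc20 and Muc4 exceeded 21.1%, 32.5%, 76.7%, 91.9% and 93.6% of the negative controls. Muc16, Muc1 and Muc5b exceeded 96.3%, 97.7% and 99.2% there.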

Other observations

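Values of 4 mucin-pathway genes, chosen after they were seen, add to the account. Ovgp1, the oviductal glycoprotein also called mucin 9, had a level of 12.84 on the GEMC1 null and 12.79 on the WT oviduct array, and 6.56 and 6.45 on the GEMC1 null and WT trachea arrays. Muc3a, a membrane-bound mucin, had 8.47 on the GEMC1 null and 9.19 on the WT oviduct array and 6.65 and 7.29 on the GEMC1 null and WT trachea arrays, a difference of -0.72 in oviduct and -0.64 in trachea. Gcnt3 had 10.69 and 9.78 on the GEMC1 null and WT oviduct arrays and was below background on both trachea arrays. Muc2, the gel-forming mucin of intestine, lay between 6.07 and 6.34 on the 4 arrays.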
